A study of Danio rerio with 24 samples.

Results

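The 6 genes described here encode the cytosolic chaperones hspa8, hsp90ab1 and hsp90aa1.1 and the endoplasmic reticulum proteins hspa5, hsp90b1 and pdia4. They were taken by their Ensembl identifiers and by no rule on their values (hspa8 ENSDARG00000068992, hsp90ab1 ENSDARG00000029150, hsp90aa1.1 ENSDARG00000010478, hspa5 ENSDARG00000103846, hsp90b1 ENSDARG00000003570 and pdia4 ENSDARG00000018491). Earlier results of these data were known when they were chosen. They are 6 of the 32520 genes listed in the deposited counts. All 6 were among the 19597 genes kept by a filter on low counts. RNA was measured in pools of 10 whole zebrafish embryos of the Tropical 5D strain, with 4 pools per group. The groups were E– embryos, whose parents were fed a diet deficient in vitamin E (VitE), and E+ embryos, whose parents were fed a VitE sufficient diet, each taken at 3 ages of 12, 18 or 24 hours after fertilization (hpf). In both, the parents had been given their diet from 55 days post-fertilization, for at least 80 days and at most 9 months, before group spawning. The labels name no heat or chemical stress in any group, and only embryos of normal appearance were used according to the study's text. Whether the pools of 1 group came from separate spawnings is not stated, so the p-values measure the spread between these pools. The embryos of 1 group also share the diet of their parents, and effects of the diet on the egg and on the embryo cannot be told apart.

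Chaperones of the HSP70 and HSP90 families bind other proteins while these fold, using cycles of ATP binding and hydrolysis. Each family has members in the cytosol and a member of its own in the endoplasmic reticulum, where secreted and membrane proteins fold and where protein disulfide isomerases such as Pdia4 form their disulfide bonds. Heat raises the transcription of the inducible cytosolic members through heat shock factor, whereas unfolded protein in the endoplasmic reticulum raises that of its chaperones through the unfolded protein response. In zebrafish embryos hsp90aa1.1 is known for its high expression in developing striated muscle, where its product acts with Unc45b in the folding of myosin.

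The 24 libraries held from 10537272 to 20973407 gene counts per pool, and 1 gene took 25.1% to 39.2% of them. Counts of replicate pools differed by more than sampling noise in each of 36 pairs (the chi-square was at least 4.88 times its degrees of freedom), so each pool was counted as 1 replicate. Some markers of each of skeletal muscle, notochord, hatching gland and yolk were read in these whole embryos. The listed mylpfa, tnnt3a, col2a1a and apoba had no match by symbol, and the yolk marker ttr had a group mean of at most 0.62 CPM. The 6 genes were well covered. The fewest reads of pdia4 in a pool were 128, of hsp90b1 646, of hsp90aa1.1 1343 and of hspa5 3202, and hspa8 and hsp90ab1 had at least 21197 and 43909. Levels are given in CPM, the gene's reads scaled to the size of its library with TMMwsp factors. The libraries are primed at the poly(A) tail and count about 1 fragment per transcript, without scaling to length, so levels are compared here between groups and not between genes. Which strand was counted is not stated, and reads of overlapping genes on opposite strands could not be separated. Reads that map to several places were tallied apart (5.65% to 7.96% per pool), so the values of genes with near-identical copies are uncertain.

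All 6 genes changed with time in at least 1 diet, and 0 of them passed the test between the diets. Between 12 and 18 hpf, 6 of the 6 genes rose in E– embryos and 5 of 6 rose in E+ embryos, at a false discovery rate (FDR, Benjamini–Hochberg over all genes tested with edgeR's quasi-likelihood test) under 0.1. Of all genes tested, 42.2% passed in E– and 43.9% in E+, and 21.7% and 22.8% passed as higher at 18 hpf. Between 18 and 24 hpf, 3 of 6 genes passed in E–, against 21.8% of all genes, and 3 of 6 in E+, against 24.8%. In each diet these 3 were hsp90b1 and pdia4, which rose again (11.2% of all genes did so in E– and 13.1% in E+), and hspa5, which fell (10.6% in E– and 11.7% in E+). Pools at 18 hpf did not overlap those at 12 hpf for 6 of 6 genes in E–, against 34% of all genes, and for 5 of 6 in E+, against 34.4%. Between 24 and 18 hpf this held for the same 3 genes in each diet, against 21.1% of all genes in E– and 23.6% in E+. The tests of 18 against 12 hpf and of 24 against 18 hpf share the 18 hpf pools and are not independent of each other.

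**Figure D1:**
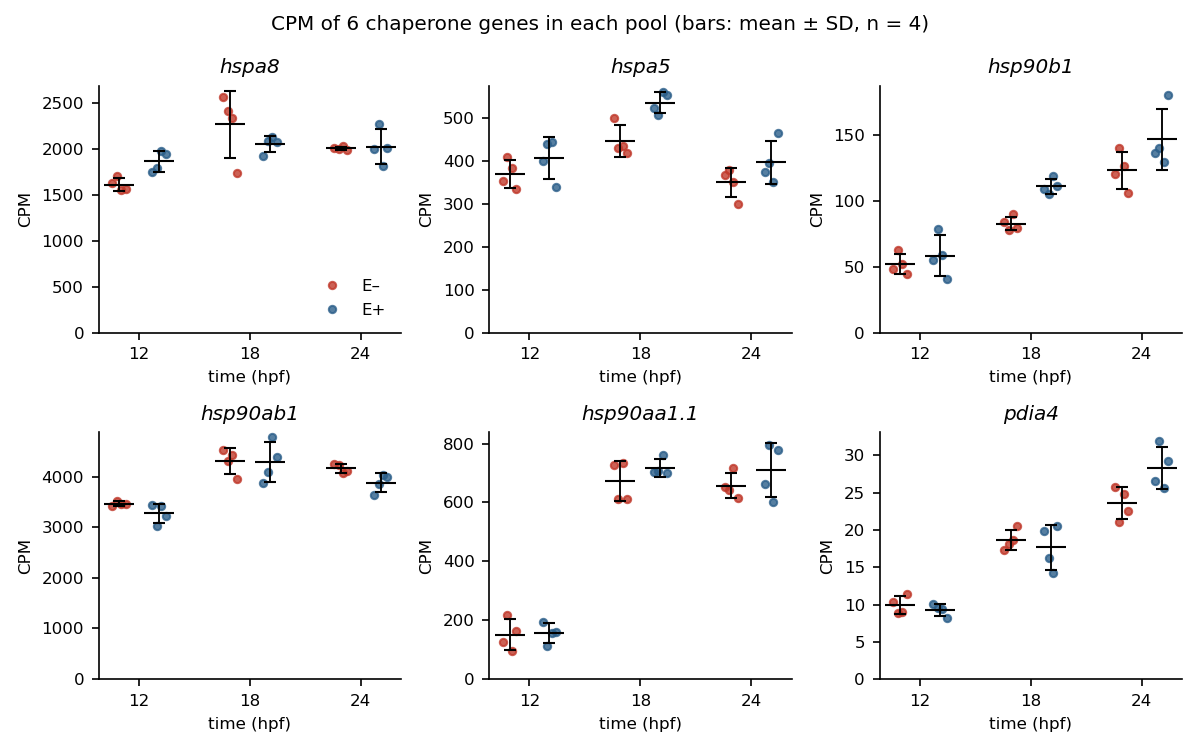
CPM of each of the 6 genes in each pool (points) against time in hpf, with E– (red) left of E+ (blue) at each time and bars for the mean ± SD of 4 pools, on linear axes from 0. The hsp90aa1.1 pools lie between 94.2 and 218 CPM at 12 hpf and between 603 and 794 CPM at 18 and 24 hpf in both diets, while the E– pools of hsp90b1 at 18 hpf (78.1 to 89.7 CPM) lie below the E+ pools (105 to 119 CPM).

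Of the cytosolic genes, hsp90aa1.1 changed most. It had 126, 218, 94.2 and 165 CPM in the E– pools at 12 hpf, 727, 613, 734 and 613 CPM at 18 hpf, and at 24 hpf 653, 644, 715 and 617 CPM. In E+ pools it had 195, 113, 156 and 161 CPM at 12 hpf, 703, 706, 763 and 700 CPM (699.9) at 18 hpf, and at 24 hpf 662, 794, 603 and 779.5 CPM. Every pool at 18 or 24 hpf was above every pool at 12 hpf, and the pools of the diets overlapped at each time. The level at 18 hpf was 4.45-fold that at 12 hpf in E– (log2FC 2.15 ± 0.15 SE, FDR = 5.34e-14) and 4.59-fold in E+ (log2FC 2.20 ± 0.15, FDR = 3.71e-14). From 18 to 24 hpf its log2FC was −0.03 in E– (FDR = 0.924) and −0.02 in E+ (FDR = 0.957), each with an SE of 0.15. Of 7 muscle markers listed, 5 had a value, and 1 of these, unc45b, is also in the list of heat shock genes described below. The 5 markers moved with hsp90aa1.1 between 12 and 18 hpf, and after that they differed from each other. None had a group mean of 0, the lowest being myog with 0.67 CPM in E– and 1.55 CPM in E+ at 12 hpf. All 5 rose between 12 and 18 hpf in both diets, and their summed level ranged from 91.4 to 143 CPM in E– and 92.0 to 230 CPM in E+ at 12 hpf, from 1250 to 1554 CPM in E– and 1333 to 1545 CPM in E+ at 18 hpf, and from 3669 to 4084 CPM in E– and 3803 to 4650 CPM in E+ at 24 hpf. From 18 to 24 hpf, a step at which hsp90aa1.1 did not pass the test, 1 marker rose and 2 fell in E–, and 1 rose and 3 fell in E+, with a median log2FC of −0.10 in E– and −0.29 in E+. The one that rose was the actin gene actc1b, with 3116 ± 180.1 CPM at 24 hpf against 842 ± 109 CPM at 18 hpf in E– and 3379 ± 372 against 789 ± 76.3 CPM in E+, which carried the higher sum. The muscle regulators myod1 (log2FC −0.61 in E– and −0.59 in E+) and myog (−0.84 and −0.90) fell in both diets. Of all genes tested, 11.2% rose and 10.6% fell over that step in E–, and 13.1% rose and 11.7% fell in E+. A higher summed level by 18 hpf was not particular to muscle markers, but only the muscle list rose in every marker tested. Between 12 and 18 hpf 21.7% of all genes tested rose in E– and 22.8% in E+. In each diet 2 of 5 hatching gland markers rose and 1 (klf17) fell. Of 4 notochord markers 2 rose and 1 (tbxta) fell, and of 3 yolk markers 2 rose and 0 fell. The hatching gland sum was carried by he1.1, with 694 CPM at 18 hpf against 161 CPM at 12 hpf in E– and 601 against 155 CPM in E+. That of notochord was carried by col9a1b, with 177 against 17.8 CPM in E– and 174 against 20.5 CPM in E+. Medians of the summed level at 12, 18 and 24 hpf were 230, 750 and 731 CPM in E– for hatching gland markers. In E+ they were 211, 643 and 707 CPM. Notochord markers had 46.9, 206 and 364 CPM in E– and 52.3, 195 and 323 CPM in E+. Yolk markers had 774, 1385 and 1353 CPM in E– and 753, 1360 and 1306 CPM in E+. The part of muscle cell number in the values of hsp90aa1.1 was not tested, and in whole embryos more cells of a type and more RNA per cell cannot be told apart.

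The other cytosolic HSP90 gene, hsp90ab1, encodes the form that most cells keep at a high level without stress. It had 3418, 3530, 3453 and 3452 CPM in the E– pools at 12 hpf and at 18 hpf 4535, 4307, 4430 and 3956 CPM. The E+ pools had 3448, 3030, 3413 and 3217 CPM at 12 hpf, and their levels at 18 hpf were 3883, 4090, 4787 and 4387 CPM. All 18 hpf pools of a diet were above its 12 hpf pools. The rise was 1.24-fold in E– (log2FC 0.31 ± 0.06, FDR = 0.0001) and 1.31-fold in E+ (log2FC 0.39 ± 0.06, FDR = 4.45e-06), far smaller than that of hsp90aa1.1. At 24 hpf the E– pools had 4256, 4222, 4065 and 4120 CPM and the E+ pools 3639, 3858, 4038 and 4002 CPM. The E– pools here were all above the E+ pools, by a narrow gap, and the difference did not pass the test (log2FC 0.10 ± 0.06, FDR = 0.82). The change from 18 to 24 hpf did not pass either, with a log2FC of −0.05 in E– (FDR = 0.677) and −0.14 in E+ (FDR = 0.112). The E+ value passed without any 1 of E+ 12 hpf replicates 1 and 2 and E+ 18 hpf replicates 1 and 2 (lowest FDR 0.0373).

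The constitutive cytosolic HSP70 gene hspa8 was the only one of the 6 whose rise between 12 and 18 hpf passed in 1 diet and not in the other. In E– pools it had 1623, 1699, 1546 and 1565 CPM at 12 hpf, 2566, 2412, 2337 and 1736 CPM at 18 hpf, and at 24 hpf 2010, 1995, 2024 and 1989 CPM. In E+ pools it had 1749, 1785, 1970 and 1944 CPM at 12 hpf, 1916, 2084, 2121 and 2073 CPM at 18 hpf, and at 24 hpf 1997, 2271, 1816 and 2003 CPM. At 12 hpf the highest E– pool was below the lowest E+ pool, at 18 hpf 3 E– pools were above and 1 was below every E+ pool, and at 24 hpf the diets overlapped. From 12 to 18 hpf the log2FC was 0.49 ± 0.08 in E– (FDR = 6.05e-06) and 0.14 ± 0.08 in E+ (FDR = 0.189). The difference between these 2 changes was 0.35 ± 0.11 on the log2 scale, with an unadjusted p of 0.00382 and an FDR of 0.355 by edgeR's quasi-likelihood test, so the difference between the diets did not pass. Of all genes tested, 0.0408% passed at an FDR under 0.1 in that comparison and 7.55% had an unadjusted p under 0.05. From 18 to 24 hpf the log2FC was −0.17 ± 0.08 in E– (FDR = 0.146) and −0.02 ± 0.08 in E+ (FDR = 0.91). The rise of hspa8 in E– from 12 to 18 hpf passed in all 31 alternatives, with an FDR of at most 0.000119. Other comparisons of hspa8 came to pass without E– 18 hpf replicate 4, the lowest pool of its group. Without it the difference between the earlier changes was 0.46 (FDR = 0.0951, in a range from 0.0951 to 0.603 over all alternatives), the rise in E+ had an FDR of 0.0973 (range 0.0973 to 0.346), and the fall in E– from 18 to 24 hpf was −0.28 with an FDR of 0.00422 (range 0.00422 to 0.454). That fall also passed without E+ 24 hpf replicate 3.

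In the endoplasmic reticulum, hspa5 (BiP), the HSP70 of that compartment, was highest at 18 hpf in both diets. It had 353, 408, 384 and 334 CPM in the E– pools at 12 hpf, 499, 430.5, 434 and 419 CPM at 18 hpf, and at 24 hpf 367, 379.5, 351 and 300.5 CPM. The E+ pools had 400.1, 439, 444 and 339 CPM at 12 hpf, 523, 506, 559 and 554 CPM at 18 hpf, and at 24 hpf 374, 395, 350.3 and 465 CPM. In each diet the 18 hpf pools were above those of both other times. The log2FC of 18 against 12 hpf was 0.27 ± 0.09 in E– (FDR = 0.0189) and 0.40 ± 0.09 in E+ (FDR = 0.000576). That of 24 against 18 hpf was −0.35 ± 0.09 in E– (FDR = 0.00602) and −0.44 ± 0.09 in E+ (FDR = 0.000531). The E– rise depended on its highest pool, since without E– 18 hpf replicate 1 the log2FC was 0.21 with an FDR of 0.101, in a range from 0.00807 to 0.101 over all alternatives.

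The endoplasmic reticulum HSP90 gene hsp90b1 (Grp94) rose at both steps. It had 48.0, 62.4, 52.2 and 44.8 CPM in the E– pools at 12 hpf, 83.9, 78.1, 89.7 and 79.2 CPM at 18 hpf, and at 24 hpf 120.3, 139.9, 127 and 106 CPM. The E+ pools had 55.2, 78.4, 58.7 and 40.8 CPM at 12 hpf, 109, 105, 119 and 111 CPM at 18 hpf, and at 24 hpf 136, 140.4, 129 and 180.1 CPM. Within a diet no 2 times overlapped, while between the diets only the 18 hpf pools were apart. The log2FC of 18 against 12 hpf was 0.67 ± 0.13 in E– (FDR = 6.36e-05) and 0.93 ± 0.13 in E+ (FDR = 3.06e-07), and that of 24 against 18 hpf was 0.57 ± 0.13 in E– (FDR = 0.00126) and 0.40 ± 0.13 in E+ (FDR = 0.0217). The E+ rise after 18 hpf lost its call without the highest E+ 24 hpf pool, replicate 4 (log2FC 0.29, FDR = 0.142, in a range from 0.00773 to 0.142 over all alternatives).

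The least read of the 6, pdia4, encodes a protein disulfide isomerase of the same compartment and also rose at both steps. The E– pools had 10.3, 8.8, 9.0 and 11.5 CPM at 12 hpf, 17.3, 18.1, 18.6 and 20.6 CPM at 18 hpf, and at 24 hpf 25.8, 21.1, 24.8 and 22.5 CPM. The E+ pools had 10.0, 9.5, 9.4 and 8.2 CPM at 12 hpf, 19.8, 16.2, 14.2 and 20.5 CPM at 18 hpf, and at 24 hpf 26.5, 31.9, 25.6 and 29.2 CPM. No 2 times overlapped within a diet. From 12 to 18 hpf the log2FC was 0.91 ± 0.13 in E– (FDR = 6.24e-07) and 0.93 ± 0.13 in E+ (FDR = 4.41e-07). From 18 to 24 hpf it was 0.34 ± 0.13 in E– (FDR = 0.0664) and 0.68 ± 0.13 in E+ (FDR = 0.000113). The E– call was lost when all genes with at least 1 read were tested (FDR = 0.131) and without any 1 of E– 18 hpf replicates 1, 2 and 3 and E– 24 hpf replicates 1 and 3 (FDR up to 0.182, in a range from 0.0561 to 0.182 over all alternatives). The difference between these later changes was −0.34 ± 0.18 (FDR = 0.998).

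**Figure D2:**
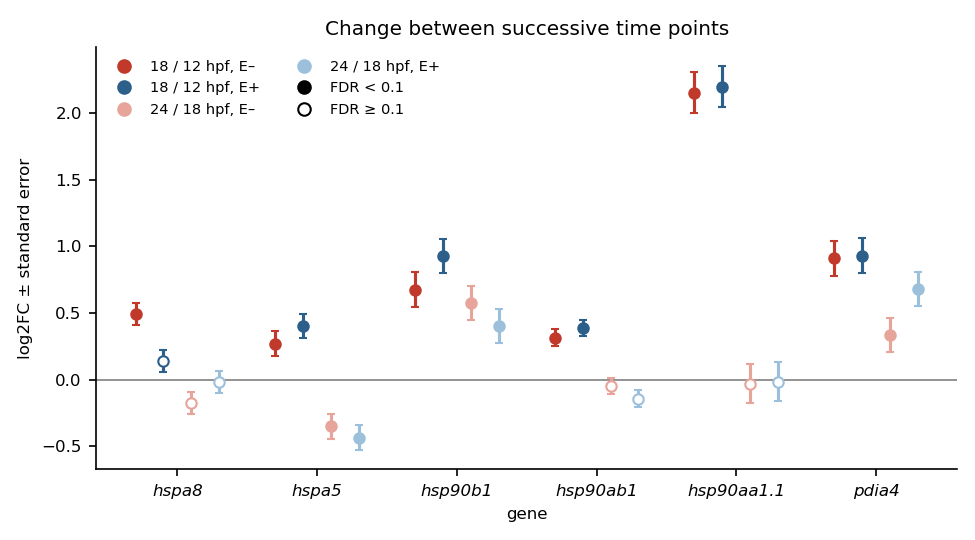
Log2FC ± SE of each gene between successive times, with E– (red) left of E+ (blue), dark symbols for 18 against 12 hpf and light symbols for 24 against 18 hpf. Filled symbols have an FDR under 0.1. The points of hsp90aa1.1 for 18 against 12 hpf are the highest, at 2.15 in E– and 2.20 in E+, and hspa5 is the only gene with filled symbols below 0.

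The order of the 6 group means differed between genes, and in 4 of them (hsp90b1, pdia4, hsp90ab1 and hspa8) it kept the groups of 1 time next to each other. For hsp90b1 it ran upwards from 51.8 ± 7.68 CPM in E– and 58.3 ± 15.5 CPM in E+ at 12 hpf, through 82.7 ± 5.29 CPM in E– and 111 ± 5.84 CPM in E+ at 18 hpf, to 123 ± 14.2 CPM in E– and 146 ± 22.8 CPM in E+ at 24 hpf (mean ± SD of 4 pools). Of these neighbours only E– and E+ at 18 hpf had pools that did not overlap. For hspa5 the highest means were 446 ± 36.3 CPM in E– and 536 ± 25.5 CPM in E+ at 18 hpf, which did not overlap, and below these each group overlapped the next down to 349 ± 34.7 CPM in E– at 24 hpf. For hsp90aa1.1 and pdia4 only steps between times were free of overlap. For hsp90ab1 the breaks lay between E– 24 hpf (4166 ± 88.7 CPM) and E+ 24 hpf (3884 ± 181 CPM), and between E+ 24 hpf and E– 12 hpf (3463 ± 47.2 CPM). For hspa8 they lay on both sides of E+ 12 hpf (1862 ± 111 CPM), which stood between E– 24 hpf (2004 ± 15.6 CPM) and E– 12 hpf (1608 ± 68.9 CPM).

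The question the study put to these embryos was what VitE deficiency changes. Over the 3 times tested together, 0 of the 6 genes passed an FDR under 0.1, against 1.12% of all genes tested. At single times 0 of 6 passed at 12 hpf (0.806% of all genes), 0 of 6 at 18 hpf (0.398%) and 0 of 6 at 24 hpf (0%), and 0 of 6 passed in the diet by time interaction (0.0153%). At an unadjusted p under 0.05 by the same edgeR test, 3 of 6 passed over the 3 times together (hsp90b1, hspa5 and hspa8, against 11.6% of all genes), 1 at 12 hpf (hspa8, against 10.6%), 2 at 18 hpf (hsp90b1 and hspa5, against 9.14%), 1 at 24 hpf (pdia4, against 6.67%) and 1 in the interaction (hspa8, against 6.69%). DESeq2 called 1 of 6 over the 3 times (hsp90b1), and 0 of 6 at each single time and in the interaction.

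The lower values of the endoplasmic reticulum chaperones hsp90b1 and hspa5 in E– embryos came nearest to the threshold. At 18 hpf hsp90b1 averaged 82.7 ± 5.29 CPM in E– and 111 ± 5.84 CPM in E+ (SD, n = 4 each), a log2FC of −0.42 ± 0.13 with an unadjusted p of 0.00219 and an FDR of 0.196 by edgeR's test. For hspa5 at that time the log2FC was −0.26 ± 0.09, with an unadjusted p of 0.00662 and an FDR of 0.288. For both genes each of the 4 E– pools lay below each of the 4 E+ pools, as for 3.07% of all genes tested at 18 hpf. The log2FC of hsp90b1 was −0.17 at 12 hpf and −0.25 at 24 hpf, and that of hspa5 was −0.13 and −0.18. Both were thus below 0 at all 3 times, as were 16.8% of all genes tested, and the pools overlapped at 12 and at 24 hpf. Tested over the 3 times together, the FDR was 0.156 for hsp90b1 and 0.206 for hspa5. With all genes with at least 1 read in the fit, the FDR of hsp90b1 was 0.0148 over the 3 times and 0.041 at 18 hpf. DESeq2 called it over the 3 times with the filter on low counts kept, so its call depends on the genes in the fit and on the method. It also passed over the 3 times without E– 12 hpf replicate 2 or E+ 12 hpf replicate 2 or 4 (lowest FDR 0.064). Over all alternatives the FDR over 3 times ranged from 0.0148 to 0.273. Within each sequencing lane, with 2 pools against 2, the 18 hpf log2FC of hsp90b1 was −0.39 in lane 7 and −0.44 in lane 8, and that of hspa5 was −0.14 and −0.38. The values at 12 hpf were −0.27 and −0.04 for hsp90b1 and −0.13 and −0.12 for hspa5. Those at 24 hpf were −0.10 and −0.41 for hsp90b1 and −0.05 and −0.32 for hspa5. Both genes were thus below 0 in both lanes at each time, but the lanes hold the same pools as the full test. Some values were smaller than their SE, such as −0.04 ± 0.17 for hsp90b1 at 12 hpf in lane 8. Another was −0.05 ± 0.12 for hspa5 at 24 hpf in lane 7.

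The third gene of that compartment, pdia4, did not follow this pattern. Its log2FC was 0.10 at 12 hpf and 0.08 at 18 hpf, and −0.26 ± 0.13 at 24 hpf, where it averaged 23.6 ± 2.14 CPM in E– and 28.3 ± 2.84 CPM in E+ and 1 E– pool overlapped the E+ pools (unadjusted p = 0.043, FDR = 0.742 by edgeR's test). In the cytosol, hspa8 had a log2FC of −0.21 ± 0.08 at 12 hpf (FDR = 0.299), 0.14 ± 0.08 at 18 hpf (FDR = 0.61) and −0.01 ± 0.08 at 24 hpf (FDR = 0.996). Its pools were apart at 12 hpf, with E– lower, as were those of 2.14% of all genes tested at that time. Within lanes the 12 hpf value of hspa8 was −0.08 in lane 7 and −0.33 in lane 8, and the 18 hpf value was 0.32 and −0.04, so its sign at 18 hpf was not shared by the lanes. The joint FDR of hspa8 over the 3 times was 0.361, and 0.0891 without E– 18 hpf replicate 4, in a range from 0.0891 to 0.513 over all alternatives. For hsp90ab1 the log2FC lay between 0.01 and 0.10 with an SE of 0.06, and for hsp90aa1.1 between −0.11 and −0.05 with an SE of 0.15. Counted in either direction, the pools of the diets did not overlap for 1 of 6 genes at 12 hpf (hspa8, against 4.11% of all genes), for 2 of 6 at 18 hpf (hsp90b1 and hspa5, against 6.32%) and for 1 of 6 at 24 hpf (hsp90ab1, against 4.37%).

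**Figure D3:**
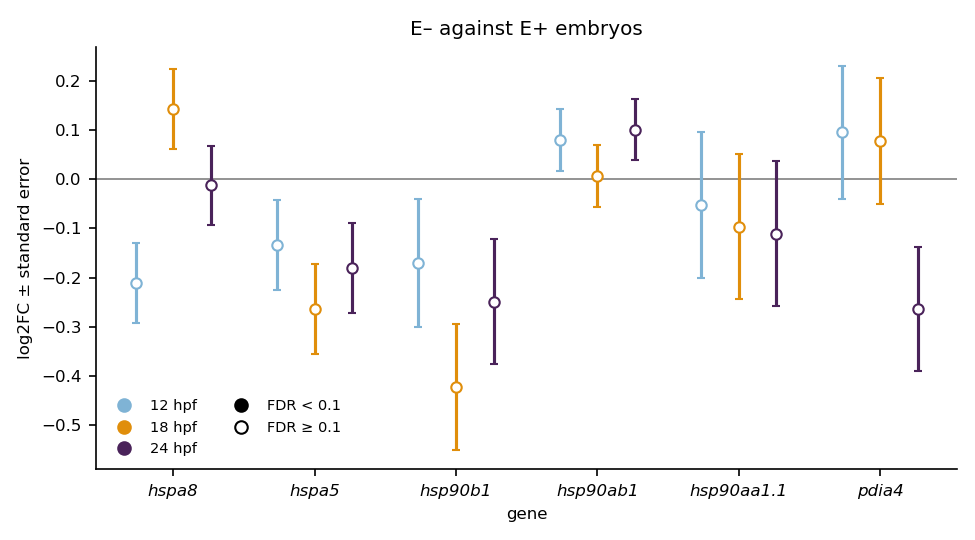
Log2FC ± SE of E– against E+ for each gene at 12, 18 and 24 hpf, where values below 0 are lower in E–. All symbols are open, since 0 of the 6 genes had an FDR under 0.1 at any time, and the lowest point is hsp90b1 at 18 hpf, at −0.42.

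Pools of the same group also differed from each other, and hspa5 and hsp90b1 did so together. After each pool's log2 CPM was set against the mean of its group, the deviations of the 2 genes had a Pearson r of 0.84 over the 24 pools, the highest of the 15 pairs among the 6 genes and described for that reason. In E– pools r was 0.97 at 12 hpf, 0.28 at 18 hpf and 0.90 at 24 hpf, and in E+ pools 0.88, 0.89 and 0.98, with 4 pools each. It was 0.74 in lane 7, 0.90 in lane 8, 0.76 without the 2 pools farthest from the median of hspa5, and between 0.79 and 0.89 with any 1 pool left out. Both genes were lowest of their group in several pools, such as E– 24 hpf replicate 4 (300.5 CPM of hspa5 and 106 CPM of hsp90b1) and E+ 12 hpf replicate 4 (339 and 40.8 CPM). Both were highest in several others, such as E+ 24 hpf replicate 4 (465 and 180.1 CPM). Points of 1 group share embryos of 1 diet and stage, and all share the scaling of their library. The deviations of the 2 genes had an r between −0.37 and 0.05 with the library's total, its scaling factor, the share of its largest gene and its shares of unmapped reads and of reads on no gene. Among 19596 other genes, hspa5 ranked 2 by its r with hsp90b1, after cldnf (0.85). Of the endoplasmic reticulum genes listed, calr3b, which encodes a calreticulin, a lectin chaperone, had the highest r with both (0.85 with hspa5 and 0.79 with hsp90b1), followed by xbp1, which encodes a transcription factor of the unfolded protein response (0.69 and 0.68). The rest of that list was not as close. Its 40 tested genes had a median r of 0.16 with hspa5 and 0.15 with hsp90b1. The lowest was pdia2, which encodes a disulfide isomerase (−0.44 and −0.52) and had at most 1.64 ± 0.38 CPM in any group. These medians were near those of 24 cytosolic and mitochondrial heat shock genes (0.16 and 0.18) and below those of 5 hatching gland markers (0.29 and 0.28) and 4 notochord markers (0.20 and 0.24), while over all genes the median was −0.01 with hspa5 and −0.02 with hsp90b1. The hatching gland and notochord lists share the gene ctslb. The deviations of pdia4 had an r of −0.01 with hspa5 and −0.02 with hsp90b1.

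**Figure D4:**
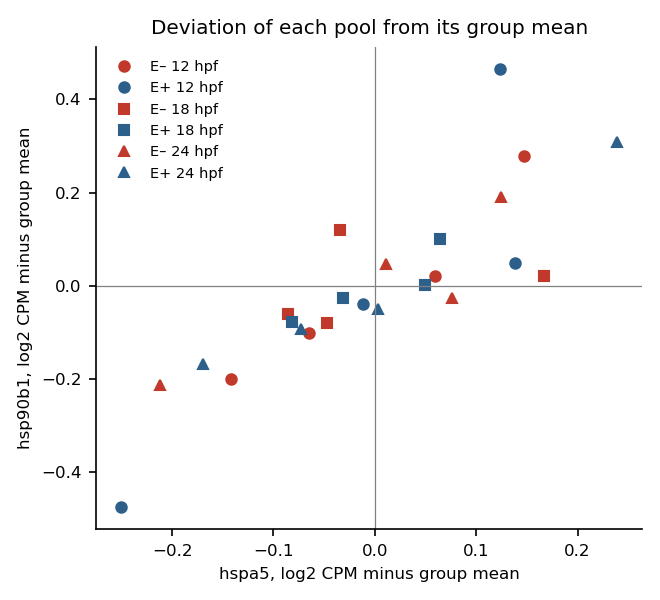
Deviation of each pool's log2 CPM from its group mean for hspa5 (horizontal) and hsp90b1 (vertical), with E– in red, E+ in blue, circles for 12 hpf, squares for 18 hpf and triangles for 24 hpf. The 24 points lie along a rising diagonal (r = 0.84), with E+ 12 hpf replicate 4 at the lower left and E+ 24 hpf replicate 4 at the right.

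Over all pools, with time included, the pairs fell out differently. The r of log2 CPM over 24 pools was 0.88 for hsp90b1 with pdia4 (Spearman's rho 0.88) and 0.88 for hsp90aa1.1 with pdia4 (rho 0.66), but 0.25 for hspa5 with hsp90b1 (rho 0.15). These values mix the change with time and the spread within groups and are given as a description. The gene outside the 6 with the highest r over the 24 pools was zgc:92429 for hsp90aa1.1 (r = 0.99), pbx1a, which encodes a homeobox transcription factor, for pdia4 (0.96), nacad for hsp90b1 (0.93), RPL36, which encodes a protein of the large ribosomal subunit, for hsp90ab1 (0.91), CHORDC1, which encodes a co-chaperone of HSP90 in mammals, for hspa5 (0.83), and PRKAR2A, which encodes a regulatory subunit of protein kinase A, for hspa8 (0.82). The nearest gene to hspa8 was thus less close than that to any other of the 6. The level of nacad was low, with at most 4.77 ± 1.23 CPM in any group. In its group means CHORDC1 rose and fell over the same steps as hspa5, which its choice by r over these pools favours. It averaged 12.2 ± 2.75 CPM in E– and 15.0 ± 1.68 CPM in E+ at 12 hpf, 18.9 ± 0.73 CPM in E– and 24.9 ± 2.19 CPM in E+ at 18 hpf, and 11.2 ± 1.89 CPM in E– and 12.1 ± 1.65 CPM in E+ at 24 hpf.

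Other chaperone genes were read from lists of known members, matched by symbol. The listed names without a match included chordc1a, chordc1b, hsp90aa1.2 and serpinh1b, and also hspa4a, hspa4b, ahsa1a, ahsa1b, ptges3a and ptges3b. Genes with the symbols CHORDC1, HSP90AA1 and SERPINH1 are in the counts but are not part of the list counts and medians. Of 39 cytosolic and mitochondrial heat shock genes, 26 were matched and 24 tested. Between 12 and 18 hpf 11 of these 24 rose and 2 fell in E– embryos, and 11 rose and 1 fell in E+. Thus 13 of 24 passed in E–, against 42.2% of all genes, and 12 of 24 in E+, against 43.9%, while 21.7% and 22.8% of all genes rose. Their median log2FC was 0.26 in E– and 0.30 in E+, beside 0.02 over all genes in each. The rising genes included 2 whose products work with HSP90, stip1, which links it to HSP70, and the immunophilin gene fkbp4. The level of stip1 was 124 ± 11.1 CPM at 18 hpf against 66.5 ± 5.94 CPM at 12 hpf in E–, and 127 ± 14.3 against 73.5 ± 5.52 CPM in E+. That of fkbp4 was 67.2 ± 6.28 against 34.7 ± 8.16 CPM in E–, and 73.3 ± 3.62 against 36.5 ± 3.16 CPM in E+. The small heat shock gene hspb1 moved the other way, with 131 ± 13.3 CPM at 18 hpf against 1892 ± 425 CPM at 12 hpf in E– (log2FC −3.85, FDR = 6.25e-23) and 131 ± 13.6 against 2032 ± 284 CPM in E+ (log2FC −3.96, FDR = 5.79e-23). From 18 to 24 hpf 2 of the 24 rose and 5 fell in E–, and 3 rose and 6 fell in E+, so 7 of 24 passed against 21.8% of all genes and 9 of 24 against 24.8%. The median log2FC was −0.11 in both, beside 0.02 in E– and 0.00 in E+ over all genes. The HSP70 co-chaperone gene dnajb1b was among those that fell in both (log2FC −0.84 in E– and −1.66 in E+). The inducible hsp70.3 rose between 12 and 18 hpf but stayed low, with at most 4.58 ± 1.23 CPM in any group.

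Of 45 endoplasmic reticulum chaperones and unfolded protein response genes, 40 were matched and tested. Between 12 and 18 hpf 11 rose and 4 fell in E–, and 12 rose and 6 fell in E+, with a median log2FC of −0.07 in E– and 0.11 in E+, beside 0.02 over all genes in each. The 15 of 40 that passed in E– and 18 of 40 in E+ are close to the shares over all genes, 42.2% and 43.9%. The calreticulin gene calr rose, with 148 ± 16.7 CPM at 18 hpf against 64.1 ± 5.80 CPM at 12 hpf in E– and 155 ± 8.73 against 61.7 ± 4.43 CPM in E+. So did pdia3, which encodes a disulfide isomerase that works with calreticulin (log2FC 0.97 in E– and 1.18 in E+). From 18 to 24 hpf 13 of the 40 fell and 1 rose in E–, and 10 fell and 1 rose in E+, with a median of −0.21 in E– and −0.19 in E+, beside 0.02 and 0.00 over all genes. Of all genes, 10.6% fell and 11.2% rose in E–, and 11.7% fell and 13.1% rose in E+. In place of the 14 E– genes, 8 passed when E– 18 hpf replicate 3 or E– 24 hpf replicate 2 was left out, and 9 when E– 24 hpf replicate 4 was. Those that fell in both diets, like hspa5, included calr3b (−0.64 in E– and −0.73 in E+), canx, which encodes the membrane lectin chaperone calnexin (−0.31 and −0.56), and hyou1, which encodes a nucleotide exchange factor of BiP (−0.45 and −0.58). The genes hsp90b1 and pdia4, which rose over that step, went against the greater number of these list genes that passed.

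**Figure D5:**
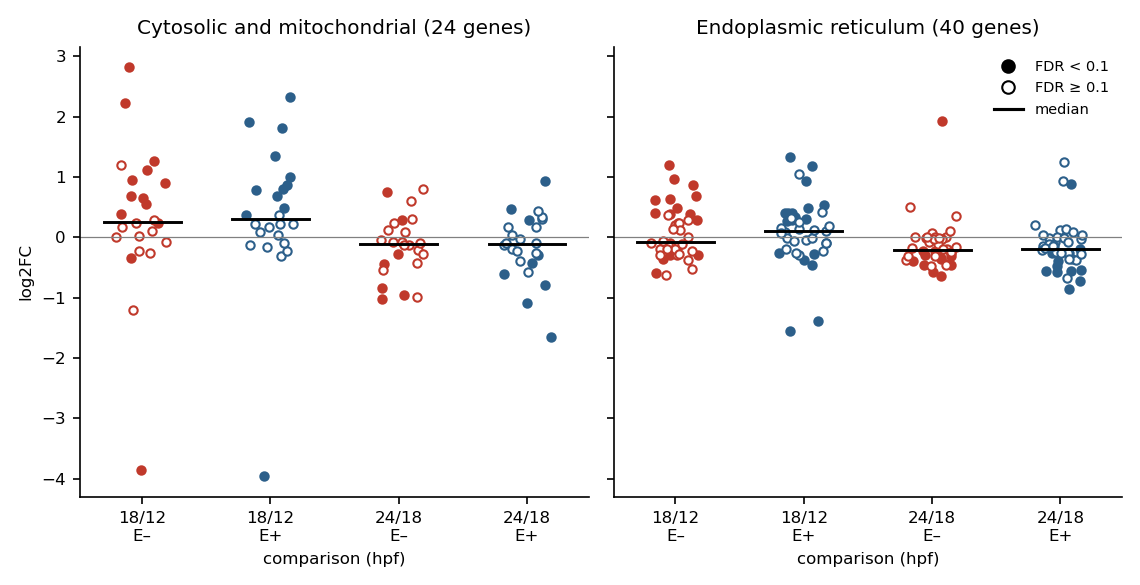
Log2FC of each listed gene between successive times, for 24 cytosolic and mitochondrial heat shock genes (left) and 40 endoplasmic reticulum genes (right), with E– (red) left of E+ (blue) at each step. Filled points have an FDR under 0.1 and lines are medians, which for the endoplasmic reticulum genes are −0.21 in E– and −0.19 in E+ from 18 to 24 hpf. The lowest points on the left are hspb1, at −3.85 and −3.96.

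Between the diets 1 of the 24 cytosolic and mitochondrial genes passed over the 3 times together, against 1.12% of all genes. It was hsf1, which encodes a heat shock factor, with 27.8 ± 4.10 CPM in E– and 17.4 ± 4.83 CPM in E+ at 12 hpf (log2FC 0.67 ± 0.17, FDR = 0.0593), 21.8 ± 2.17 CPM in E– and 14.8 ± 1.93 CPM in E+ at 18 hpf (0.55 ± 0.17, FDR = 0.20), and 10.7 ± 2.66 CPM in E– and 11.2 ± 1.47 CPM in E+ at 24 hpf. Its joint FDR was 0.0374, and 1 gene of the list also passed with each of the 24 pools left out in turn. At 12 hpf it was the 1 gene of 24 that passed, against 0.806% of all genes, but 0 of the 24 genes passed in 5 of those 24 fits, without E– replicate 1 or 3 or E+ replicate 1, 3 or 4 at 12 hpf. The study itself reports hsf1 among its differentially expressed transcription factors, and the lists were chosen with earlier results known. Counts of list genes that passed between the diets are thus only a description. Of the 40 endoplasmic reticulum genes 1 passed over the 3 times, calr3b (FDR = 0.0597), again against 1.12% of all genes, and 2 passed at 18 hpf, both lower in E–, against 0.398%. They were calr3b, with 321 ± 10.5 CPM in E– and 406 ± 21.3 CPM in E+ (log2FC −0.34 ± 0.09, FDR = 0.0979), and canx, with 232 ± 19.6 CPM in E– and 289.5 ± 20.5 CPM in E+ (log2FC −0.32 ± 0.08, FDR = 0.0876). Both are close to the threshold. With TMM scaling 0 of the 40 passed at 18 hpf, and with a lane term or the replicate number as a block 1 did. Fewer than 2 passed in 14 of the 24 fits with a pool left out, and 0 passed in 10 of these. The joint call of calr3b was lost without E– 18 hpf replicate 2, 3 or 4, E+ 18 hpf replicate 2 or 3, or E+ 24 hpf replicate 4. At 18 hpf the log2FC was below 0 in 27 of the 40 genes, with a median of −0.08 beside 0.00 over all genes. Of the 24 cytosolic and mitochondrial genes, 15 were below 0 at that time, with a median of −0.06. At 12 hpf 19 of the 40 (median 0.02) and 18 of the 24 (median −0.07) were below 0. At 24 hpf these were 26 of the 40 (median −0.08) and 16 of the 24 (median −0.05).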

How the data were processed

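RNA-seq counts of 24 whole-embryo pools were analysed, grouped by the labels. The authors trimmed reads with bbduk 35.92, checked them with FastQC 0.11.5, aligned them with STAR 2.7.3a to GRCz11 with Ensembl release 100, and deposited raw read counts per gene, without normalization or a filter, beside 4 tallies of reads on no single gene, which were left out of library sizes. Gene totals ran from 10537272 to 20973407, and intervals of such counts cover counting error only. Sequences, coordinates, promoters and proteins were not analysed here.

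Counts were tested in R 4.3.3 with edgeR 4.0.16: filterByExpr (19597 genes, of 29109 with at least 1 read), TMMwsp scaling, dispersions over 6 group means, the older quasi-likelihood method and the Benjamini–Hochberg FDR under 0.1. The rule of the study's own gene filter is not given in the sources used here. The SE is the log2FC over the square root of its F statistic. On simulated counts (18995 genes, 200 changed by a log2FC of 1) the joint diet test recovered 180 and called 19 others, and the tests at 12, 18 and 24 hpf recovered 145, 147 and 138. The simulation gave all genes the same dispersion and each changed gene the same change at each time. Smaller changes, such as those of the 6 genes between the diets, were not simulated. Alternatives were all genes with at least 1 read, TMM, DESeq2 1.42.0, the newer quasi-likelihood method, the lane as a term, the replicate number as a block, an FDR under 0.05, the largest gene left out of library totals, each pool left out in turn, and each lane alone (2 pools against 2). The 6 genes and the lists were chosen with earlier results of these data known. Genes named beyond the 6 are the nearest gene to each by Pearson r of log2 CPM over the 24 pools, and listed genes that passed a test. Some listed names are given only because they had no match, a low level or a place in more than 1 list. Other genes named (SERPINH1, hspa1b, HSP90AA1, a second gene with the symbol HSPA8, pdia2 and cldnf) were chosen after their values were seen. Symbols came from a table that matched 29201 of 32520 identifiers. Figures used Python 3.11.15 and matplotlib 3.10.9.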

Additional observations from a re-analysis of the deposited data

Results flagged for a closer look

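Of 36 sets of 4 pools, each the CPM of 1 of the 6 genes in 1 group, 1 had a pool far from the others by Dixon's criterion for 4 values, where chance alone gives about 1.8. It was hsp90aa1.1 in E+ embryos at 18 hpf, with 763 CPM in replicate 3 and 700 (699.9), 703 and 706 CPM in the other pools, so that the gap to the nearest pool was 0.899 of the range. The 4 E– pools at that time had 727, 613, 734 and 613 CPM, a wider spread than the E+ pools.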

How the results depend on the processing

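Of the values of the 6 genes under the alternatives, 2022 kept their direction and their side of the threshold, 15 came to pass, 8 no longer passed and 37 changed sign. No value that passed an FDR under 0.1 changed sign. The number of the 6 genes that passed between the diets over 3 times was 0, and 1 with all genes with at least 1 read, 1 with DESeq2 (hsp90b1 in both), and from 0 to 1 with a pool left out. At 18 hpf it was 0, and 1 with all genes with at least 1 read.

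With a pool left out, E– against E+ ranged from −0.28 to 0.12 for hsp90aa1.1 and from −0.30 to 0.0057 for hsp90b1 at 12 hpf, from −0.039 to 0.064 for hsp90ab1 and from −0.013 to 0.16 for pdia4 at 18 hpf, and from −0.089 to 0.049 for hspa8 at 24 hpf. The change from 18 to 24 hpf ranged from −0.075 to 0.013 in E– and −0.077 to 0.058 in E+ for hsp90aa1.1, and from −0.081 to 0.034 in E+ for hspa8. The E– minus E+ difference of the 12 to 18 hpf change ranged from −0.21 to 0.19 for hsp90aa1.1 and from −0.11 to 0.062 for pdia4, and that of the later change from −0.12 to 0.046 for hsp90aa1.1. DESeq2 gave 0.000823 for hsp90aa1.1 in E+ from 18 to 24 hpf. Within lane 7, E– against E+ was 0.17 for hsp90aa1.1 and −0.019 for pdia4 at 12 hpf and −0.015 for pdia4 at 18 hpf. Within lane 8 it was −0.13 for hsp90ab1 and −0.042 for hspa8 at 18 hpf and 0.071 for hspa8 at 24 hpf. The cause was not tested.

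Over all genes tested, the number that passed between the diets was 220 over 3 times, 158 at 12 hpf, 78 at 18 hpf, 0 at 24 hpf and 3 in the interaction. It was 573, 338, 177, 26 and 122 with all genes with at least 1 read, 638, 307, 199, 23 and 104 with DESeq2, and 84, 59, 35, 0 and 0 at an FDR under 0.05. With the lane as a term 0 passed in the interaction. With a pool left out it ran from 103 to 362, 49 to 331, 7 to 111, 0 to 4 and 0 to 62. Replicate numbers are shared between the groups, but the 12 same-numbered pairs of E– and E+ pools had correlations of their deviations between −0.054 and 0.036, and 2 of 12 E– pools correlated best with their own number, so the numbers were not taken to pair the pools. With the replicate number as a block 0 of the 6 genes passed between the diets, as without it, and 175, 116, 85, 0 and 0 of all genes did. With pdia4 at 128 to 532 reads per pool, counting error bears more on it than on the others.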

Other observations

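The HSP70 and HSP90 families hold further genes in these counts, which were looked at after their values were seen. A gene with the symbol HSP90AA1 (ENSDARG00000024746) averaged 66.0 ± 10.8 CPM in E– and 85.2 ± 22.2 CPM in E+ at 12 hpf, 255 ± 52.7 CPM in E– and 327 ± 37.6 CPM in E+ at 18 hpf, and 159.8 ± 45.2 CPM in E– and 179 ± 23.4 CPM in E+ at 24 hpf. It rose with hsp90aa1.1 between 12 and 18 hpf (log2FC 1.95 in E– and 1.94 in E+) and then fell (−0.67 in E– with an FDR of 0.00421 and −0.87 in E+ with an FDR of 0.000187 by edgeR's quasi-likelihood test), a step at which hsp90aa1.1 did not pass. A second gene with the symbol HSPA8 had from 1 to 44 reads per pool.

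SERPINH1, which encodes a collagen chaperone of the endoplasmic reticulum and is named after its values were seen, was the gene with the next highest r with hspa5 after CHORDC1 (0.82 over 24 pools). It averaged 345 ± 63.5 CPM in E– and 343 ± 36.1 CPM in E+ at 12 hpf, 553 ± 79.0 CPM in E– and 700.3 ± 98.2 CPM in E+ at 18 hpf, and 254 ± 31.0 CPM in E– and 278 ± 32.1 CPM in E+ at 24 hpf. Its log2FC of E– against E+ at 18 hpf was −0.34, with an FDR of 0.274 by edgeR's test.

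The gene with the symbol hspa1b, of the inducible cytosolic HSP70 kind, averaged 2.92 ± 1.00 CPM in E– and 1.62 ± 0.99 CPM in E+ at 12 hpf, 3.13 ± 1.41 CPM in E– and 2.05 ± 1.27 CPM in E+ at 18 hpf, and 5.42 ± 2.39 CPM in E– and 1.99 ± 1.07 CPM in E+ at 24 hpf. The log2FC of E– against E+ was 0.83, 0.61 and 1.45 at the 3 times and did not pass over them together (FDR = 0.144 by edgeR's test). The listed genes hsp70l and hsp70.3, also low, did not share this direction at each time. Their log2FC at 12, 18 and 24 hpf was 1.32, 0.19 and −1.10 for hsp70l and −1.34, 0.12 and −0.30 for hsp70.3. Neither passed over the 3 times (FDR = 0.674 and 0.394 by edgeR's test). The highest group mean of hsp70l was 0.80 ± 0.34 CPM.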
